A study of Mus musculus with 12 samples.

Results

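The genes described are 10 immediate early genes of the mouse retina, chosen by name with earlier results of these data known. They were found by Entrez gene ID in all 12 count tables, which list 27179 gene IDs each. They are the AP-1 subunits Fos, Fosb, Jun and Junb, the transcription factors Egr1, Nr4a1 and Npas4, the nuclear protein gene Ier2, the synaptic gene Arc and the MAP kinase phosphatase gene Dusp1. All 10 passed the filter on low counts, which kept 16475 genes. The libraries were made from whole retinas of 12-month-old and 3-month-old mice with a glial ABCA1 knockout (KO) and of control mice of the same ages. Each of these 4 groups had 3 libraries. The extraction protocol names the knockout mice Astro-KO. ABCA1 moves cholesterol and phospholipids out of cells. The labels do not name the promoter that drives the deletion, the alleles that the controls carry, the sex of the mice or the time of day and lighting at which retinas were taken. Whether the libraries within each group were taken from different mice is not stated either, so the p-values reflect library-to-library spread that may be technical only.

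Immediate early genes are transcribed within minutes of a stimulus from factors already present in the cell, with no need for new protein. Calcium entry, cAMP and growth factor receptors act through ERK and other kinases on factors such as SRF and CREB, which are bound at these promoters before the stimulus. In the retina several of them, Fos and Egr1 among them, are used as markers of cells that have responded to light or to synaptic input. Their transcripts are short-lived, and some of their products, Dusp1 among them, act back on the kinases that switched them on.

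The promoters are shown because a common response of these genes to cAMP and calcium is known to pass through the CRE, the site bound by CREB. The RefSeq table for GRCm38.p6 held a promoter for 7 of the 10 members (Jun, Fosb, Junb, Fos, Nr4a1, Dusp1 and Npas4). The CRE core TGACG was searched on both strands, where it reads CGTCA, over the 250 bases before each start site. It lay in 6 of the 7 members, in all but Jun, and in 17.8% of all 32851 promoters of the same length. Nr4a1 held 4 matches, Dusp1 3, Fos and Npas4 2 each, and Junb and Fosb 1 each. The whole window of Npas4 lay inside annotated exons. The full site TGACGTCA, which overlaps core matches, lay in Dusp1 alone among the 7 and in 1.55% of all promoters. No CArG box, the site bound by SRF, was found in these windows, against 1.47% of all promoters. The search took only exact matches within the 250 bases, and Egr1, Ier2 and Arc had no promoter to search. It thus cannot tell whether these genes carry SRF sites. A match is a description of the letters and shows no binding. Capitals mark the core matches in 4 promoters, each printed 5′ to 3′ from RefSeq (GRCm38.p6) up to the first base of an annotated exon. For Nr4a1 the RefSeq start lies inside the longer annotated gene:
Fos (chr12:85473640-85473889, plus strand): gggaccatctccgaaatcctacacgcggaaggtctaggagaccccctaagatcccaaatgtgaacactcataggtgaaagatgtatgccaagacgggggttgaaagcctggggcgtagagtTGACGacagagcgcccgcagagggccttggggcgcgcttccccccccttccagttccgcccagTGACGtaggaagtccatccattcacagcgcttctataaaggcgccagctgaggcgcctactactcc
Junb (chr8:84978749-84978998, minus strand): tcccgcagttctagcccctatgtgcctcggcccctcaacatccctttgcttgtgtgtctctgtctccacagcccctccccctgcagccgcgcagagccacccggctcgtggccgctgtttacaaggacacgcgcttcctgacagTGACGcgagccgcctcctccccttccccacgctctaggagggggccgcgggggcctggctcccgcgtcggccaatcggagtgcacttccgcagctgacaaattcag
Nr4a1 (chr15:101266596-101266845, plus strand): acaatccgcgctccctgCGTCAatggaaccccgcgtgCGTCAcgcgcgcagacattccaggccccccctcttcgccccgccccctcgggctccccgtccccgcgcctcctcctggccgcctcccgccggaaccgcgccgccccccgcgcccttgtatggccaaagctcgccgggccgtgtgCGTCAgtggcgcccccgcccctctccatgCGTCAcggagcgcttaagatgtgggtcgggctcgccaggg
Dusp1 (chr17:26508520-26508722, minus strand): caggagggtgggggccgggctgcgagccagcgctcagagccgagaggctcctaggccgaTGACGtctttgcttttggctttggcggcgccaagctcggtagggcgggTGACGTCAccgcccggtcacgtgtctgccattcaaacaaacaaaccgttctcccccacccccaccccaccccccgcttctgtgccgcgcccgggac

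Library totals spanned 29027099 to 30438026 counts, with 18541 to 19144 genes detected. Control replicate 2 at 3 months and KO replicate 1 at 12 months stood apart from their groups: the chi-square per degree of freedom between libraries of a group reached 41.8 for the control library, against 3.48 for the closest pair of any group. Levels are given as scaled CPM, the count over the TMM-scaled library size. None of the markers fixed for cones, bipolar, amacrine and ganglion cells, Müller glia, astrocytes and microglia was at 0 in any library. All 3 libraries of 12-month KO also stood apart in Xist, which coats the inactive X chromosome. It stood at 52.3 to 85.5 CPM in 12-month KO retina, against 0.0686 to 0.609 CPM in 3-month KO retina, and at 0.167 to 0.272 CPM in the 6 control libraries. The sum of 4 Y-linked genes was 126 to 151 CPM in 12-month KO retina, against 146 to 156 CPM in 3-month KO retina. In 12-month control retina that sum was 119 to 135 CPM, against 90.7 to 157 CPM at 3 months.

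The targeted gene Abca1 was not lower in KO retina. It averaged 36.3 ± 7.91 CPM in 12-month KO and 30.8 ± 2.66 CPM in 12-month control retina (SD, n = 3 each). At 3 months it averaged 26.3 ± 1.78 CPM in KO and 22.7 ± 3.34 CPM in control retina (SD, n = 3 each). Neither difference passed (adjusted p = 0.65 and 0.70, edgeR), and since the counts pool all exons and all retinal cells they are no check on a glial deletion.

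Per kilobase of exon, the order of the 10 members over the 12 libraries spanned from Nr4a1 to Arc. Nr4a1 averaged 62.7 CPM per kilobase, Egr1 48.9, Jun 32.6, Junb 32.4 and Fos 29.4 CPM per kilobase, and Ier2 came between Fos and Dusp1, which averaged 19.0 CPM per kilobase. Npas4 followed at 4.58, Fosb at 1.64 and Arc at 1.35 CPM per kilobase. Jun and Junb, neighbours in that order, changed places between ages. Junb averaged 37.8 and Jun 34.4 CPM per kilobase in 12-month KO retina, against 23.4 for Junb and 29.7 for Jun in 3-month KO retina. The lowest count of any member in any library was 83, for Arc. No RefSeq gene overlapped any of the 10, so counting without strand would not mix their reads with those of another annotated gene. The highest of the 12 values exceeded the lowest 3.13-fold for Fosb, 2.53-fold for Nr4a1 and 1.28-fold for Jun, the widest and the narrowest ranges being those of Fosb and Jun.

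**Figure D1:**
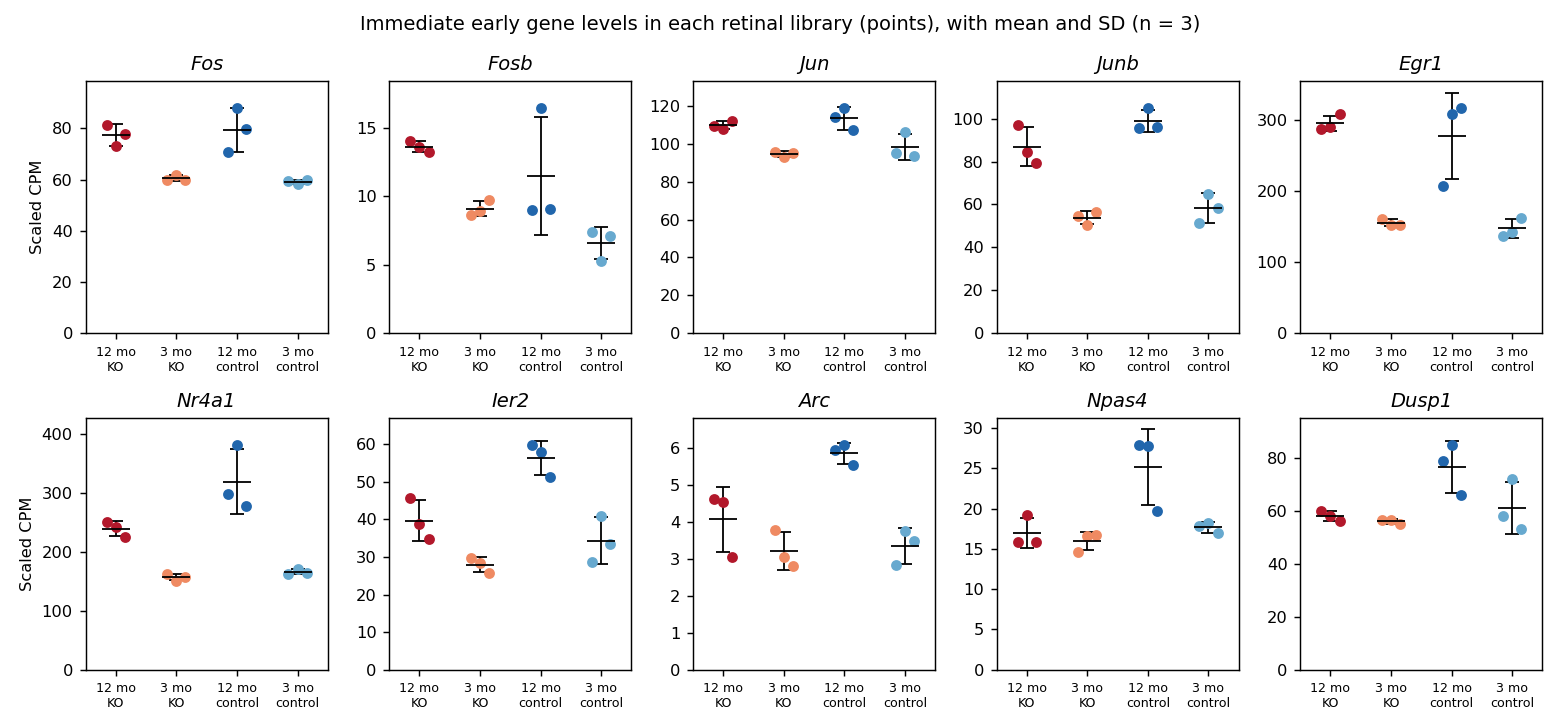
Scaled CPM (linear axis from 0) of each of the 10 genes in 12-month KO, 3-month KO, 12-month control and 3-month control retina; points are libraries, the bar is the mean and the whisker the SD (n = 3). The 12-month Egr1 values, from 207 to 317 CPM, all lie above the 3-month values, from 137 to 162 CPM.

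The first question was which of these genes differed between 12 and 3 months in each genotype. In KO retina 5 of the 10 rose with age (Fos, Junb, Egr1, Nr4a1 and Ier2), and in control retina 8 rose (the same 5 with Fosb, Arc and Npas4). None fell in either genotype. Among all 16475 genes tested, 1.54% rose and 0.832% fell in KO retina, and 1.4% rose and 0.71% fell in control retina, at the same threshold, an adjusted p below 0.05 (edgeR quasi-likelihood test, Benjamini-Hochberg over all genes). The median log2 fold change of the 10 was 0.43 in KO and 0.74 in control retina, against -0.00069 and 0.0016 for all genes tested. For 33 other immediate early genes it was 0.024 and 0.093. The 10 were chosen with earlier results of these data known, so their shares and medians describe the list and are no independent test. The 12-month libraries all lay above the 3-month libraries for 7 members in KO retina and for 9 in control retina, where 10.7% and 9.21% of all genes did so. With 3 libraries against 3, an exact permutation test of a single gene cannot give a p below 0.1.

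Among the AP-1 genes, Junb, which encodes a Jun family subunit, moved most firmly. In KO retina Junb stood at 97.0, 84.6 and 79.2 CPM at 12 months, against 54.5, 50.5 and 56.3 CPM at 3 months. In control retina its 12-month libraries had 95.8, 105.0 and 96.2 CPM, against 51.4, 65.0 and 58.5 CPM at 3 months. All 6 of the 12-month libraries thus lay above all 6 of the 3-month libraries. The log2 fold change of Junb was 0.69 ± 0.091 (SE) in KO retina and 0.76 ± 0.091 (SE) in control retina, with adjusted p = 0.00014 and 3.619e-05 (edgeR).

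Fos encodes the partner with which Jun proteins form the classical AP-1 dimer. Its KO libraries had 81.5, 73.0 and 78.0 CPM at 12 months, against 59.8, 61.9 and 59.7 CPM at 3 months. Its control libraries had 70.8, 88.0 and 79.8 CPM at 12 months, against 59.4, 58.3 and 59.8 CPM at 3 months. The 3-month values lay close together in both genotypes and below every 12-month value. Fos was 1.28-fold higher at 12 months in KO retina (adjusted p = 0.015, edgeR) and 1.34-fold higher in control retina (adjusted p = 0.0036, edgeR).

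Fosb encodes a Fos relative whose truncated form is long-lived. In KO retina its libraries had 14.1, 13.6 and 13.2 CPM at 12 months, against 8.67, 8.91 and 9.74 CPM at 3 months, a log2 fold change of 0.58 that did not pass (adjusted p = 0.14, edgeR). In control retina it had 8.98, 16.5 and 9.08 CPM at 12 months, against 7.41, 5.26 and 7.10 CPM at 3 months. Replicate 2 stood far above the other 2 libraries of 12-month control. The log2 fold change in control retina was 0.80 (adjusted p = 0.038, edgeR), and without that library it was 0.45 (adjusted p = 0.22, edgeR). Jun, whose product can also pair with itself, had the smallest age difference of the 4 in both genotypes. It ranged from 108 to 112 CPM in 12-month KO retina, against 93.0 to 95.8 CPM at 3 months. In control retina it ranged from 107 to 119 CPM at 12 months, against 93.8 to 106 CPM at 3 months. The ages did not overlap for Jun in either genotype, but its log2 fold changes of 0.21 in both did not pass (adjusted p = 0.14 in KO and 0.17 in control, edgeR).

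Egr1, a zinc finger factor also known as Zif268, showed the largest age difference of the 10 in KO retina. In KO retina it stood at 288, 290.0 and 308 CPM at 12 months, against 161, 153 and 152 CPM at 3 months. In control retina it stood at 207, 309 and 317 CPM at 12 months, against 137, 143 and 162 CPM at 3 months. Replicate 1 of 12-month control lay well below its 2 fellows and still above every 3-month library. The log2 fold change was 0.93 ± 0.12 (SE) in KO and 0.91 ± 0.12 (SE) in control retina, with adjusted p = 0.00041 and 0.0004 (edgeR).

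Nr4a1, an orphan nuclear receptor also known as Nur77, rose in both genotypes. Its KO libraries had 250.3, 241 and 225 CPM at 12 months, against 162, 151 and 158 CPM at 3 months. Its control libraries had 298, 381 and 277 CPM at 12 months, against 163, 171 and 164 CPM at 3 months. The log2 fold change was 0.61 with a 95% interval of 0.41 to 0.80 in KO retina, and 0.94 with an interval of 0.75 to 1.13 in control retina, with adjusted p = 0.00057 and 2.426e-06 (edgeR). Ier2, whose short nuclear protein is induced by growth factors, rose in both as well. It had 45.6, 38.8 and 34.7 CPM in 12-month KO retina, against 29.6, 28.5 and 25.7 CPM in 3-month KO retina. In control retina it had 59.9, 58.0 and 51.3 CPM at 12 months, against 28.5, 40.9 and 33.5 CPM at 3 months. Its values at the 2 ages did not overlap within either genotype. Ier2 was 1.42-fold higher at 12 months in KO retina (adjusted p = 0.028, edgeR) and 1.64-fold higher in control retina (adjusted p = 0.0016, edgeR).

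The neuronal members rose in control retina and did not pass in KO retina, though the difference between the genotypes passed for neither. Arc, which encodes a capsid-like protein that removes AMPA receptors from synapses, had 4.63, 4.54 and 3.06 CPM in 12-month KO retina, against 3.78, 3.05 and 2.81 CPM in 3-month KO retina. In control retina Arc had 5.94, 6.09 and 5.54 CPM at 12 months, against 2.82, 3.75 and 3.48 CPM at 3 months. The ages overlapped for Arc in KO retina and were well apart in control retina. Its log2 fold change was 0.34 with a 95% interval of -0.068 to 0.75 in KO retina (adjusted p = 0.50, edgeR) and 0.80 in control retina (adjusted p = 0.030, edgeR). Npas4, a bHLH-PAS factor induced by calcium entry into neurons, had 15.9, 19.2 and 15.8 CPM in 12-month KO retina, against 14.6, 16.7 and 16.7 CPM in 3-month KO retina. In control retina Npas4 had 27.9, 27.8 and 19.7 CPM at 12 months, against 17.9, 18.3 and 16.97 CPM at 3 months. The ages overlapped for Npas4 in KO retina as well, and in control retina replicate 3 at 12 months came near the 3-month values. The log2 fold change of Npas4 was 0.086 with a 95% interval of -0.19 to 0.36 in KO retina (adjusted p = 0.86, edgeR) and 0.51 in control retina (adjusted p = 0.041, edgeR).

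Dusp1, which removes phosphates from p38, JNK and ERK kinases, passed in neither genotype with edgeR on all 12 libraries. It ranged from 56.3 to 59.9 CPM in 12-month KO retina, against 55.1 to 56.7 CPM in 3-month KO retina. It ranged from 66.1 to 85.1 CPM in 12-month control retina, against 53.4 to 72.2 CPM in 3-month control retina. The log2 fold change of Dusp1 was 0.052 in KO retina (adjusted p = 0.90, edgeR) and 0.32 in control retina (adjusted p = 0.12, edgeR), and in control retina the ages overlapped through replicate 2 at 3 months. Without that library Dusp1 passed in control retina, with a log2 fold change of 0.46 and an adjusted p below 0.05 (edgeR).

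**Figure D2:**
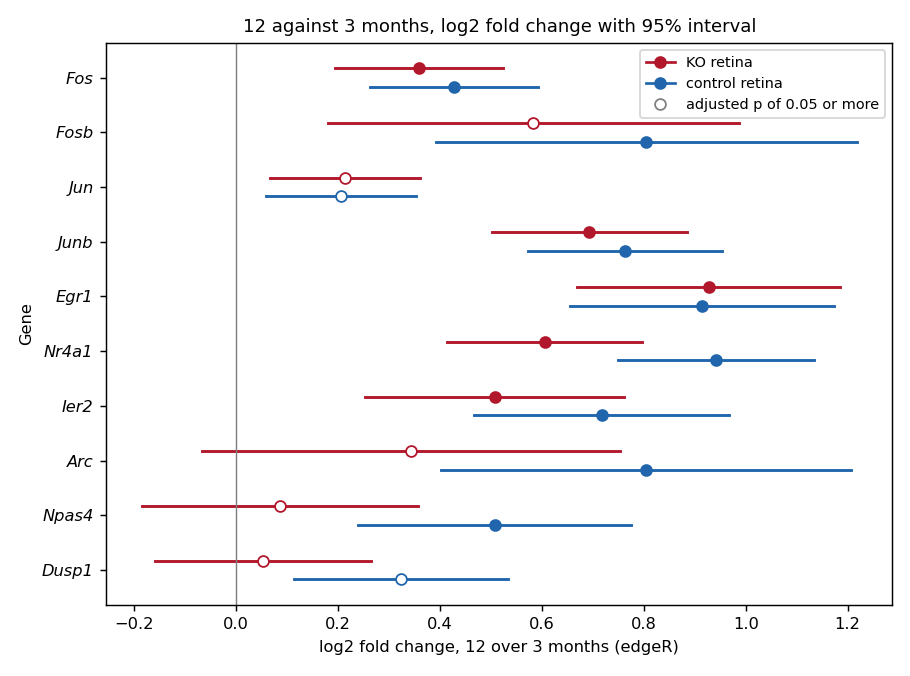
Log2 fold change of 12 over 3 months (horizontal axis) with its 95% interval for each gene, in KO retina (upper of each pair, red) and control retina (lower, blue); filled points have an adjusted p below 0.05 (edgeR), open points do not. The 5 genes filled in KO retina are also filled in control retina, and Npas4 has 0.086 in KO and 0.51 in control retina.

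These counts depended on single libraries and on the tool. With limma-voom 7 members rose in KO retina (Fosb and Jun with the 5 above) and all 10 in control retina, where it called 1268 and 760 of all genes in either direction. DESeq2 called the same 5 and 8 members as edgeR, with 592 and 574 of all genes in either direction. Fitting only the 6 libraries compared called 6 in KO retina, with Fosb, and 5 in control retina. That fit called 557 of all genes in KO and 198 in control retina, against 390 and 347 in the main fit. Leaving out 1 library called 187 to 367 of all genes in KO and 201 to 440 in control retina. In KO retina 3 members rose (Egr1, Junb and Nr4a1) without any 1 of the 3 libraries of 3 months, and 4 without any 1 of those of 12 months. Fos lost its call without any 3-month KO library or without replicate 3 of 12-month KO, and Ier2 without any 3-month KO library or without replicate 1 or 2 of 12-month KO (adjusted p up to 0.096 and 0.18, edgeR). In control retina 5 members rose (Fos, Junb, Egr1, Nr4a1 and Ier2) without replicate 1 or 3 of 3 months or without replicate 2 of 12 months, and 9 rose without replicate 2 of 3 months, where Jun and Dusp1 passed and Fosb did not. The calls of Fosb, Arc and Npas4 in control retina were each lost under 5 to 7 of 17 alternatives, with adjusted p up to 0.22, 0.13 and 0.22 (edgeR). Without control replicate 2 at 3 months and KO replicate 1 at 12 months together, 6 members rose in KO and 8 in control retina, where Jun and Dusp1 passed and Fosb and Egr1 did not. That fit called 1069 of all genes in KO and 1040 in control retina.

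Other values moved with age beside these genes. The summed level of 5 microglia markers was 32.6 to 33.9 CPM in 12-month KO retina, against 24.4 to 25.6 CPM in 3-month KO retina. In control retina it was 31.3 to 32.6 CPM at 12 months, against 22.7 to 25.5 CPM at 3 months. In bulk tissue more cells of a type and more RNA per cell cannot be told apart, and the part of microglia in the results was not tested. The 8 skeletal muscle markers summed to 3.94 to 4.47 CPM in 12-month control retina, against 68.8 to 79.2 CPM in 3-month control retina. The 7 lens markers summed to 5.31 to 16.0 CPM in 12-month control retina, against 24.7 to 2875 CPM in 3-month control retina, the highest value being that of replicate 2. In KO retina the muscle sum was 3.36 to 5.32 CPM at 12 months, against 4.18 to 7.34 CPM at 3 months, and the lens sum 5.37 to 12.6 CPM, against 3.94 to 5.28 CPM. The 4 cornea markers summed to 1.82 to 2.30 CPM in 12-month control retina, against 3.18 to 29.3 CPM in 3-month control retina. Other sums separated the ages in KO retina alone. The pigment epithelium sum was 44.3 to 57.2 CPM at 12 months, against 67.04 to 85.4 CPM at 3 months in KO retina, the bipolar sum 1256 to 1405 CPM, against 1454 to 1496 CPM, and the cone sum 894 to 992 CPM, against 997 to 1025 CPM. Single markers did not all go with these sums. Of 5 pigment epithelium markers 3 had log2 fold changes above 0 (range of the 5, -0.68 to 1.21). The same held for 3 of 5 cone markers and 1 of 5 bipolar markers. The Müller glia sum was higher, at 3770.0 to 3838 CPM at 12 months, against 3717 to 3742 CPM at 3 months in KO retina, as was the astrocyte sum, at 33.7 to 35.9 CPM, against 31.1 to 33.0 CPM. Log2 fold changes of single markers ran from -0.22 to 0.18 for Müller glia and from -0.52 to 0.17 for astrocytes. All 3 libraries of 12-month KO carried Xist, as given above. The part of these marker sums and of Xist in the results was not tested.

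The second question was the effect of the knockout at each age. At 12 months Nr4a1, Ier2, Arc, Npas4 and Dusp1 had 3 KO values that all lay below the 3 control values, as did 8.33% of all genes tested. None of the 10 passed with edgeR, where 0.212% of all genes passed in either direction and 0.085% were lower in KO. At an unadjusted p below 0.05 the same 5 members differed, as did 8.7% of all genes. DESeq2 on all 12 libraries called 4 lower (Nr4a1, Ier2, Npas4 and Dusp1), with 0.417% of all genes, and limma-voom called 3 (Nr4a1, Ier2 and Dusp1), with 0.571% of all genes. Whether these differences passed thus depended on the test.

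The age values above give each library of Nr4a1 and Ier2 at 12 months. Nr4a1 averaged 239 ± 12.8 CPM in KO and 319 ± 55.1 CPM in control retina (SD, n = 3 each), a log2 fold change of -0.42 with a 95% interval of -0.61 to -0.23 (adjusted p = 0.072, edgeR). Ier2 averaged 39.7 ± 5.48 CPM in KO and 56.4 ± 4.53 CPM in control retina (SD, n = 3 each), a log2 fold change of -0.51 with an interval of -0.76 to -0.26 (adjusted p = 0.10, edgeR). For both genes the SD of each group was smaller than the gap between the means, though the control libraries of Nr4a1 spanned 277 to 381 CPM.

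Npas4 showed the lowest log2 fold change of the 10 at 12 months. It averaged 16.97 ± 1.90 CPM in KO and 25.2 ± 4.74 CPM in control retina (SD, n = 3 each), -0.57 on the log2 scale with an interval of -0.84 to -0.30 (adjusted p = 0.083, edgeR). Its highest KO library, at 19.2 CPM, lay just below its lowest control library, at 19.7 CPM. Dusp1 averaged 58.1 ± 1.80 CPM in KO and 76.6 ± 9.67 CPM in control retina (SD, n = 3 each), a log2 fold change of -0.40 (adjusted p = 0.14, edgeR). Arc, at 4.07 ± 0.882 CPM in KO and 5.86 ± 0.286 CPM in control retina (SD, n = 3 each), had a log2 fold change of -0.52 with a wide interval of -0.92 to -0.13 (adjusted p = 0.43, edgeR).

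The AP-1 genes and Egr1 lay closer to control at 12 months. Fos averaged 77.5 ± 4.25 CPM in KO and 79.5 ± 8.57 CPM in control retina (SD, n = 3 each), and its interval of -0.20 to 0.13 on the log2 scale bounds the difference. Jun had a log2 fold change of -0.047 (interval -0.19 to 0.10) and Egr1 of 0.089 (interval -0.17 to 0.34). Junb had a log2 fold change of -0.19 with an interval of -0.38 to 0.0012. Fosb was the member with the highest value, 0.25 with an interval of -0.15 to 0.64. Among these 5 the KO and control libraries overlapped.

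In the authors' deposited table of KO against control at 12 months, 4 of the 10 have an adjusted p below 0.05, all with negative log2 fold changes. The authors' deposited table gives Ier2 a log2 fold change of -0.39 (adjusted p = 0.0029, DESeq2) and Npas4 of -0.37 (adjusted p = 0.024, DESeq2). It gives Nr4a1 -0.33 and Dusp1 -0.32, both with adjusted p = 0.021 in the authors' deposited table (DESeq2). That table holds 109 genes below the threshold. Here 35 passed with edgeR on all 12 libraries and 119 with DESeq2 on only the 12-month libraries. The deposited log2 fold changes of these 4 genes were smaller in size than those of edgeR here, and the cause was not tested. With edgeR, leaving out replicate 3 of 12-month control called 3 members lower (Nr4a1, Npas4 and Dusp1), and leaving out replicate 1 of 12-month KO called 1 (Ier2). Fits that left out 1 of the 12-month libraries called 13 to 52 of all genes in either direction. Without that KO library and replicate 2 of 3-month control together, 4 were called lower (Junb, Ier2, Npas4 and Dusp1), and 421 of all genes were called in either direction.

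**Figure D3:**
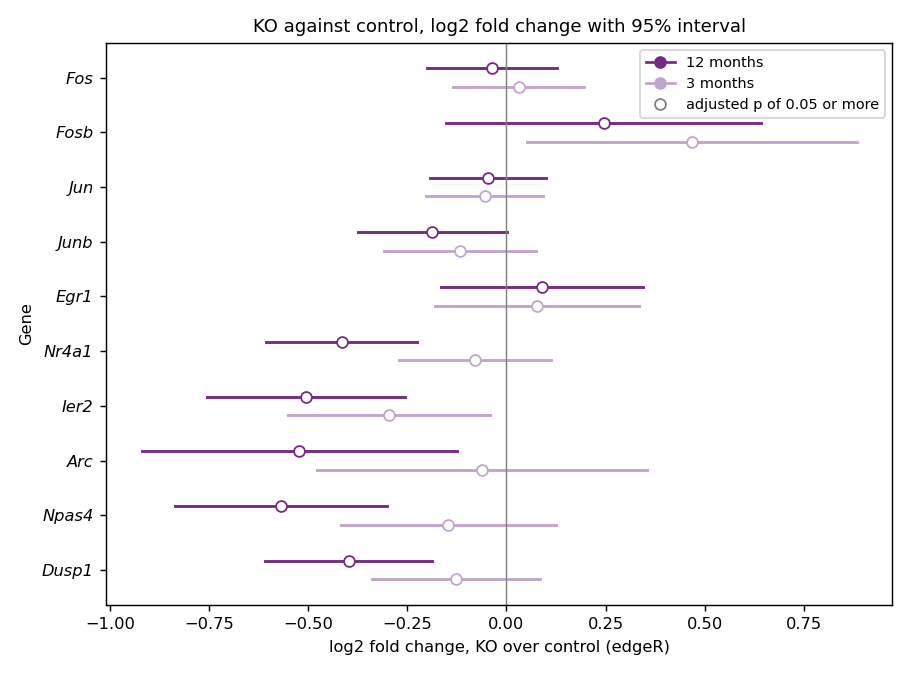
Log2 fold change of KO over control (horizontal axis) with its 95% interval for each gene, at 12 months (upper of each pair, dark) and at 3 months (lower, light); open points have an adjusted p of 0.05 or more (edgeR), which holds for all 20. At 12 months the intervals of Nr4a1, Ier2, Arc, Npas4 and Dusp1 lie below 0.

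Sums of cell type markers separated the groups at 12 months too, though none of the markers tested in the lists named here passed with edgeR. The summed bipolar markers were 1256 to 1405 CPM in KO and 1488 to 1561 CPM in control retina, and the summed ganglion cell markers 689 to 722 CPM in KO and 737 to 799 CPM in control retina. The summed Müller glia markers were 3770.0 to 3838 CPM in KO and 3895 to 4042 CPM in control retina. The amacrine sum was 868 to 882 CPM in KO and 887 to 918 CPM in control retina. The astrocyte sum was higher in KO, at 33.7 to 35.9 CPM in KO and 31.7 to 33.2 CPM in control retina, as was the cornea sum, at 2.94 to 5.31 CPM in KO and 1.82 to 2.30 CPM in control retina. Yet only 2 of 4 astrocyte markers and 1 of 3 cornea markers tested had log2 fold changes above 0. Among the lower sums, log2 fold changes above 0 were held by 2 of 6 ganglion cell, 1 of 5 Müller glia and 1 of 5 amacrine markers. The microglia sum was 32.6 to 33.9 CPM in KO and 31.3 to 32.6 CPM in control retina. Each of these sums, and Xist as given above, separated the 12-month groups, the microglia sum by less than the digits printed, and their part in the values of the immediate early genes was not tested.

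At 3 months none of the 10 passed with edgeR, DESeq2 or limma-voom, where 0.225% of all genes passed with edgeR. At an unadjusted p below 0.05 Fosb and Ier2 differed (2 of 10), against 7.5% of all genes. Fosb averaged 9.11 ± 0.561 CPM in KO and 6.59 ± 1.16 CPM in control retina (SD, n = 3 each), a log2 fold change of 0.47 (adjusted p = 0.66, edgeR). Ier2 averaged 27.9 ± 2.004 CPM in KO and 34.3 ± 6.22 CPM in control retina (SD, n = 3 each), a log2 fold change of -0.30 (adjusted p = 0.65, edgeR). The log2 fold changes of the other 8 ran from -0.15 for Npas4 to 0.076 for Egr1. Nr4a1 and Npas4 had 3 KO values all below control, by a small margin, and Fosb had 3 all above. Of all genes tested, 7.66% lay all below and 7.97% all above. Marker sums of muscle, lens and Müller glia were lower in all 3 KO libraries than in all 3 control libraries at 3 months, and those of cones and blood higher. Of 5 Müller glia markers 2 had log2 fold changes above 0. The part of these marker sums in the values of the 10 was not tested.

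The third question was whether the change with age differed between the genotypes, which is the same as asking whether the KO effect differed between the ages. For none of the 10 did that difference pass with edgeR, DESeq2 or limma-voom, where 0.127% of all genes passed with edgeR. At an unadjusted p below 0.05 it differed for Nr4a1 and Npas4 (2 of 10), against 4.33% of all genes. For Nr4a1 the age change in KO minus that in control retina was -0.34 on the log2 scale, with an interval of -0.61 to -0.067. For Npas4 the same difference was -0.42, with an interval of -0.80 to -0.041 (adjusted p = 0.999 for both, edgeR). For Fos, Jun, Junb and Egr1 the difference lay between -0.070 and 0.013, and the intervals of all 4 included 0. The 12-month control libraries enter both the age change in control retina and the KO comparison at 12 months, so the larger rises of Nr4a1, Arc and Npas4 in control retina and their lower KO values at 12 months are not separate observations.

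How far the libraries of a group varied together was read from each library's deviation from its group mean in log2 CPM. In 12-month control retina replicate 2 lay above the group mean for all 10 members and was the highest of the 3 for 7 of them. Replicate 3 of that group was the lowest of the 3 for 6 members, with Npas4 0.33 below the mean (a deviation of -0.33) and Egr1 0.22 above it. In 12-month KO retina replicate 1 was the highest of the 3 for 7 members and replicate 3 the lowest for 7. In 3-month control retina replicate 2 was the highest for 7, and in 3-month KO retina replicate 1 for 6. Mean deviations over the 10 members ran from -0.11 in replicate 3 to 0.18 in replicate 2 of 12-month control, and from -0.015 to 0.028 in 3-month KO retina. The mean deviations of the 3-month KO libraries thus lay closest together. In replicate 2 of 12-month control 51.4% of all tested genes lay above their group mean, and in replicate 3 51.2%. That share was 50.6% in replicate 1 and 50.8% in replicate 3 of 12-month KO. It was 51.2% in replicate 2 of 3-month control and 50.2% in replicate 1 of 3-month KO. The share of all genes that were highest or lowest of the 3 in a library was not counted.

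**Figure D4:**
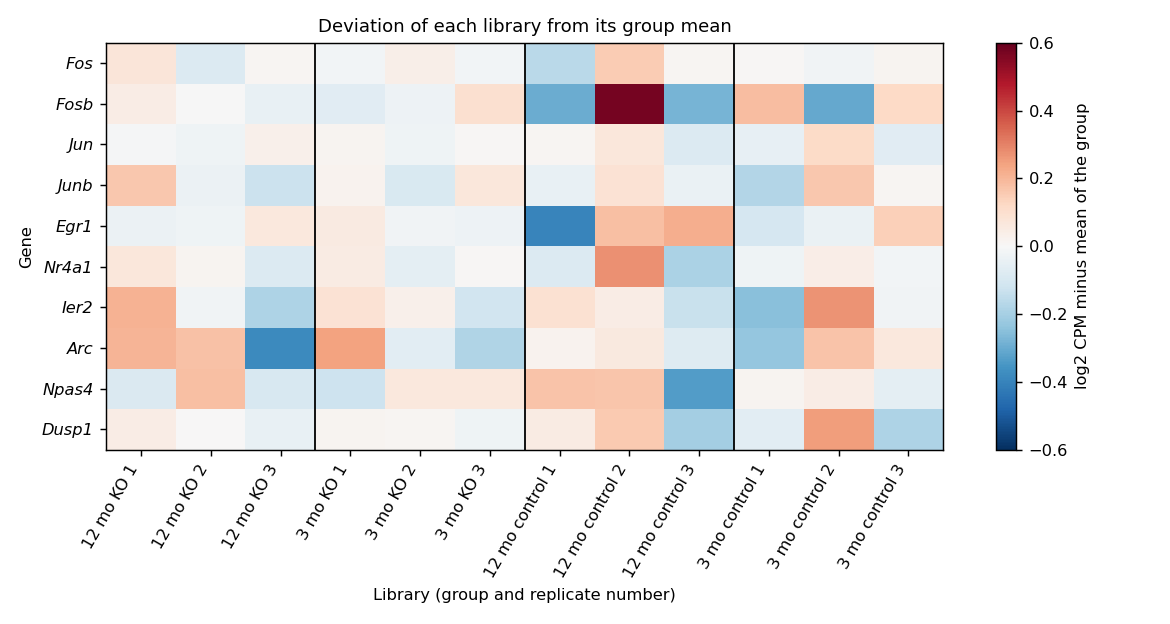
Deviation of each library from its group mean, in log2 CPM (colour, red above and blue below), for the 10 genes (rows) and 12 libraries (columns, 3 per group, separated by lines). Replicate 2 of 12-month control is above its mean in all 10 rows, by 0.58 for Fosb, while the 3-month KO columns are pale.

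The members did not vary as 1 block. Over the 45 pairs of genes the median Pearson r of these deviations across the 12 libraries was 0.33, and 36 pairs had an r above 0. The median was -0.003 over the pairs of all 11759 genes with a mean of at least 5 CPM. It was 0.033 for 28 other immediate early genes and 0.26 for 14 other MAP kinase phosphatases and ERK feedback inhibitors. Without replicate 2 of 12-month control the median over the 45 pairs was 0.088, and without replicate 3 of that group 0.21. Deviations in a group of 3 sum to 0 and share library and scaling, so these medians are descriptions.

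Nr4a1, Dusp1 and Junb had the highest median r with the other 9 members, at 0.55, 0.54 and 0.52, and Egr1 the lowest, at -0.021. The highest pair was Jun with Dusp1, with a Pearson r of 0.91 (p = 0.035, adjusted p = 0.39) and a Spearman coefficient of 0.78 (p = 0.075, adjusted p = 0.35), by exact two-sided permutation within groups over 12 libraries. Without the 2 libraries farthest from the median of Jun that r was 0.79. For Junb with Nr4a1 the Pearson r was 0.57 (p = 0.0039, adjusted p = 0.17) and Spearman's coefficient 0.79 (p = 0.0031, adjusted p = 0.10) by the same exact permutation test, and r was 0.59 without the 2 libraries farthest from the median of Junb. No pair of the 45 passed an adjusted p of 0.05 by either measure, and 5 had an unadjusted p below 0.05 for Pearson's r. Egr1 with Npas4 was the lowest pair, with a Pearson r of -0.54 (p = 0.35, adjusted p = 0.74) and a Spearman coefficient of -0.41 (p = 0.28, adjusted p = 0.69) by exact permutation, and an r of -0.033 without the 2 libraries farthest from the median of Egr1.

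The genes outside the 10 whose deviations were most like the mean standardized deviation of the members were chosen among 11645 genes of at least 5 CPM. They were Dusp7 (Pearson r = 0.96 over the 12 libraries), Aqp1 (0.96), Spry2 (0.94), Irf7 (0.94), Gna12 (0.92), Ethe1 (0.91), Hspa1b (0.91) and 1700123O20Rik (0.90). Dusp7 encodes an ERK phosphatase and Spry2 an inhibitor of growth factor signalling. Being the highest of so many, these values are descriptions.

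Genes of related lists were tested in the same fit. Of 33 other immediate early genes tested, 2 rose in KO retina and none fell, while 3 rose and 3 fell in control retina, with median log2 fold changes of 0.024 and 0.093. Of all genes tested, 1.54% rose and 0.832% fell with age in KO retina, and 1.4% rose and 0.71% fell in control retina. The age comparisons of these lists use the same libraries as those of the 10. For the difference of the age changes between the genotypes no gene of the related lists passed with edgeR, against 0.127% of all genes. In KO retina the stress-induced ATF family gene Atf3 rose by 0.80 and the growth arrest gene Gadd45b by 0.70 on the log2 scale (adjusted p = 0.0038 and 0.0095, edgeR). In control retina Ier3 rose by 0.46 (adjusted p = 0.0039, edgeR), and the AP-1 gene Fosl2 (-0.60), the flow-responsive factor Klf2 (-0.67) and the RNA-binding protein gene Zfp36l2 (-0.47) fell (adjusted p = 0.020, 0.023 and 0.00061, edgeR). The ages also did not overlap for Atf3 in control retina (9.92 to 14.2 CPM at 12 months, against 7.43 to 8.60 CPM at 3 months). Nor did they for Zfp36l2 in KO retina (335 to 361 CPM at 12 months, against 395 to 420 CPM). They overlapped for Gadd45b in control retina and for Ier3, Fosl2 and Klf2 in KO retina.

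Some genes that damp ERK signalling fell with age. Of 15 other MAP kinase phosphatases and ERK feedback inhibitors, none rose and 4 fell in each genotype. Their median log2 fold changes were -0.27 in KO and -0.14 in control retina. Of all genes tested, 0.832% fell in KO and 0.71% in control retina. Spry2 and Spred3 fell in both. Spry2 averaged 49.7 ± 2.63 CPM in 12-month KO retina, against 77.8 ± 0.743 CPM in 3-month KO retina (SD, n = 3 each, adjusted p = 6.732e-05, edgeR). In control retina Spry2 averaged 69.8 ± 6.87 CPM at 12 months, against 87.1 ± 4.25 CPM at 3 months (SD, n = 3 each, adjusted p = 0.033, edgeR). The other falls were Spred1 and Spred2 in KO retina and Dusp4 and Spry4 in control retina, with log2 fold changes from -0.64 to -0.38. None of these 4 passed in the other genotype, for which the values follow. Spred2 had 15.4 to 20.0 CPM in 12-month control retina, against 23.6 to 26.5 CPM at 3 months. In KO retina Dusp4 had 48.4 to 64.1 CPM at 12 months, against 68.5 to 75.4 CPM, and Spry4 10.9 to 11.5 CPM, against 14.3 to 16.2 CPM. The ages overlapped for Spred1 in control retina.

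With age 1.54% of all genes tested rose and 0.832% fell in KO retina, and 1.4% rose and 0.71% fell in control retina. The kinases and factors that act on immediate early promoters, such as ERK, CREB and SRF, seldom passed. Of 31, none passed in KO retina and 1 rose in control retina, the activity-dependent factor Mef2c (0.38, adjusted p = 0.035, edgeR), and Mef2d and Map2k2, the most highly expressed by CPM, had log2 fold changes of -0.044 and -0.062 in KO retina. In KO retina Mef2c had 88.4 to 97.2 CPM at 12 months, against 74.5 to 78.2 CPM at 3 months. Of 19 secondary activity-regulated neuronal genes, 1 fell in KO retina, the secreted peptide precursor Vgf (-0.37), and 2 fell in control retina, Vgf (-0.51) and the neurotrophin Bdnf (-0.88), with adjusted p = 0.013, 0.00061 and 0.0022 (edgeR). In KO retina Bdnf had 5.62 to 7.44 CPM at 12 months, against 7.48 to 8.81 CPM at 3 months. Of 19 clock genes, Ciart rose (0.57) and Per2 fell (-0.32) in KO retina, and the repressor Nfil3 rose (0.52) in control retina (adjusted p = 0.0075, 0.027 and 0.0016, edgeR). Of 14 stress and glucocorticoid genes none passed in KO retina, where Sgk1 and Ddit4 had log2 fold changes of 0.24 and -0.0038, and Trib3 (0.86) and Ddit4 (0.49) rose in control retina (adjusted p = 0.0011 and 0.0061, edgeR).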

How the data were processed

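Per the labels' protocols, the libraries were stranded, poly(A)-selected and made from retinal RNA of integrity number over 8. The authors deposited unnormalized counts for each Entrez gene. HISAT2 2.1.0, featureCounts 1.6.4, DESeq2 1.22.1 and GRCm38 appear in the submitters' processing notes. No source used here gives the strand setting or how multiply aligned reads were treated. Even numbers made up 60.7% to 70.2% of the counts from 1 to 20. The authors also deposited a headerless table of the 12-month comparison. Its columns were read as mean normalized signal, log2 fold change with its error, a score, and a p-value before and after adjustment, since the deposited score equals the deposited log2 value over its standard error.

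Genes were named from a RefSeq table of GRCm38.p6 (25275 IDs matched). Counts were filtered with filterByExpr, scaled by TMM and fitted with edgeR 4.0.16 (robust quasi-likelihood, 1 coefficient per group, all 12 libraries) in R 4.3.3. Standard errors are the log2 fold change over the root of F. Log2 CPM used a prior count of 2. Lengths are unions of GENCODE M21 exons. Of 216 listed genes 215 were matched. The members and lists were chosen with earlier results of these data known. All members are described. Genes of other lists were named by smallest adjusted p (up to 4 past the threshold in each age comparison) or, with none, by the highest mean CPM. The sex-linked genes were added after their values were seen. The fit was tested on simulated counts. Alternatives were RLE and upper quartile scaling, DESeq2 1.42.0, limma-voom (limma 3.58.1), no filter and a filter of 1 CPM, fits of the compared groups alone, halved counts, a replicate block, a threshold of 0.1 and libraries left out. DESeq2 on only the compared libraries was chosen after seeing the data.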

Additional observations from a re-analysis of the deposited data

How the results depend on the processing

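The age rises of Junb, Egr1 and Nr4a1 passed under every alternative in KO retina, and those of Fos, Junb, Nr4a1 and Ier2 in control retina; Egr1 in control retina missed only without both libraries that stand apart (adjusted p = 0.051, edgeR). Leaving out 1 library called 3 to 4 members with age in KO retina and 5 to 9 in control retina, and fitting only the libraries compared called 6 and 5. Limma-voom called 7 in KO retina and 10 in control retina, where Dusp1 had an adjusted p of 0.0021. For KO against control at 12 months, where edgeR called 0, DESeq2 called 4 on all 12 libraries and 4 on only those compared, limma-voom 3, no filter 2, a threshold of 0.1 2, the removal of both libraries that stand apart 4, and leaving out 1 library 0 to 3. The cause was not tested. At 3 months and for the difference of the age changes 0 members were called under any alternative run.

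The signs of small log2 differences turned. With limma-voom Arc at 3 months was 0.013 and the difference of the age changes of Jun -0.040. Without both libraries that stand apart Jun at 3 months was 0.0050, Arc 0.028 and Dusp1 0.0089, and the difference of Jun was -0.049. Leaving out 1 library gave ranges at 3 months of -0.088 to 0.0049 for Jun, -0.19 to 0.028 for Arc and -0.22 to 0.0088 for Dusp1. At 12 months it gave -0.11 to 0.041 for Fos and -0.083 to 0.20 for Egr1. For the difference of the age changes it gave -0.15 to 0.0099 for Fos, -0.37 to 0.13 for Fosb, -0.052 to 0.043 for Jun, -0.16 to 0.013 for Junb and -0.16 to 0.12 for Egr1, and for Npas4 with age in KO retina -0.011 to 0.13. The median r over the 45 pairs ranged from 0.088 to 0.38 when 1 library was left out.

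Over all genes edgeR called 390 with age in KO retina, 347 with age in control retina, 35 between KO and control at 12 months, 37 at 3 months and 21 for the difference of the age changes. In that order DESeq2 called 592, 574, 128, 63 and 44, limma-voom 1268, 760, 163, 76 and 56, and edgeR without both libraries that stand apart 1069, 1040.0, 421, 58 and 50 genes. Leaving out 1 library gave 187 to 367, 201 to 440.0, 13 to 52, 21 to 41 and 14 to 29 genes. At 12 months no filter called 64, a threshold of 0.1 66 and DESeq2 on only the libraries compared 119. With age the libraries compared alone called 557 in KO retina and 198 in control retina. A threshold of 0.1 called 560.0 with age in control retina, and at 3 months DESeq2 on the libraries compared called 65. Replicate numbers did not pair the libraries: of 18 pairs with the same number 1 had a correlation of deviations over 0.1 (median -0.016), and 3 of 12 libraries correlated best with their own number. A replicate block called 7 members in control retina (Fosb missed, adjusted p = 0.074, edgeR) and gave a median r of 0.23. The lowest count of a member was 83, for Arc, and with counts halved the same members were called with age as with the counts as deposited.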

Other observations

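At 12 months 4 genes of the related lists passed between KO and control retina, named here after their values were seen. Of 33 other immediate early genes 1 was higher and 1 lower in KO. Of 15 MAP kinase phosphatases and ERK feedback inhibitors 1 was lower, as was 1 of 14 stress and glucocorticoid genes. None passed of 31 kinases and factors, 19 secondary neuronal genes and 19 clock genes. Of all genes 0.212% passed. All 3 libraries of 12-month KO carried Xist, and its part in these values was not tested. Zfp36, whose product speeds the decay of short-lived mRNAs, was higher in KO, at 15.9 ± 0.669 CPM in KO and 10.2 ± 1.76 CPM in control retina (SD, n = 3 each, adjusted p = 0.027, edgeR). Ier3, an immediate early gene of the stress response, was lower, at 49.7 ± 5.86 CPM in KO and 68.5 ± 5.62 CPM in control retina (SD, n = 3 each, adjusted p = 0.021, edgeR). Spry2 and the mTOR inhibitor gene Ddit4 were lower too, with log2 fold changes of -0.49 and -0.73 (adjusted p = 0.0057 and 0.00063, edgeR).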
